A study of Mus musculus with 7 samples.

Results

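The genes described here are 9 endothelial genes that mark venous and systemic vessels or carry the adhesion of leukocytes to an inflamed vessel wall: Vwf, Plvap, Ackr1, Slco2a1, Selp, Sele, Vcam1, Icam1 and Icam2. They were chosen by name from 55401 genes in the count table, and all 9 were among the 17465 genes with enough reads to be tested. RNA came from the right lung lobes of male C57BL/6 mice, aged 6 to 8 weeks and weighing 20 to 25 g, all of which had received bleomycin, an agent that scars the lung. Mice were randomised on day 7. The BLM+HBO group (n = 3) then breathed oxygen at 2.5 ATA, that is in atmospheres absolute, for 90 min a day over 14 days (HBO, hyperbaric oxygen), and the BLM group (n = 4) did not. Lungs of both groups were taken on day 21. The sources differ on whether the BLM mice also sat in the chamber without pressurised oxygen, so chamber handling and oxygen cannot be told apart here. The data used here hold no unchallenged mice, so a level in the BLM group is not a level of induction by bleomycin.

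Endothelial cells of post-capillary venules are where leukocytes leave the blood. P-selectin (Selp) and E-selectin (Sele) let leukocytes roll, and ICAM-1 (Icam1), ICAM-2 (Icam2) and VCAM-1 (Vcam1) then bind their integrins and hold them firmly. Von Willebrand factor (Vwf) is stored with P-selectin in Weibel-Palade bodies, the secretory granules of endothelium, while Ackr1 is a chemokine-binding receptor of venular endothelium and of erythroid cells. Plvap forms the diaphragms of endothelial fenestrae and caveolae, and Slco2a1 takes up prostaglandins. In the lung, most capillaries are low in Vwf, whereas veins, arteries and the systemic bronchial vessels carry it.

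Levels are given as CPM, read counts relative to each library's total, scaled between mice by the TMM method, which assumes that most genes do not change. Total counts were 18436336 to 19002242 in the BLM mice and 18157161, 20632391 and 26365969 in BLM+HBO 1, 2 and 3. In pairwise comparison of counts, BLM+HBO 2 lay nearer to BLM 3 and BLM 4 (chi-square per gene 19.0 and 13.0) than to the other BLM+HBO mice (64.3 and 57.5), although this measure also grows with depth. Values without BLM+HBO 2 are given beside the genes whose call or size depended on it. Endothelial RNA was present in every library: Cdh5 (VE-cadherin) and Pecam1 lay at 503 to 720 and 471 to 708 CPM across the 7 mice. Neither is among the genes described here, so their levels do not show which cells made those genes. Cells were not separated, so for every gene below fewer cells of a type and less RNA per cell cannot be told apart.

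Sequence before the start site is shown for Sele, Selp and Icam1, the adhesion genes with an entry in the promoter table used here, to show what letters lie there. Sequences are from RefSeq (GRCm38.p6), 5′ to 3′ on the gene's strand, and the table held 5 of the 9 genes. Capitals mark matches to 4 short motifs searched on both strands. The first was GGNNNTTCC, the letters of an NF-kB type site. A second was TGANTCA, which AP-1 factors favour. GATA factors favour AGATAA, and TATAAA is the core of the promoter box of that name. The windows are chr1:164047984-164048233 for Sele, chr1:164115014-164115263 for Selp and chr9:21015690-21015939 for Icam1, all on the plus strand. For Ackr1, the gene with the lowest fold change of the 9, only the 30 bases around its AGATAA match are shown, chr1:173333461-173333490 on the minus strand.
Sele: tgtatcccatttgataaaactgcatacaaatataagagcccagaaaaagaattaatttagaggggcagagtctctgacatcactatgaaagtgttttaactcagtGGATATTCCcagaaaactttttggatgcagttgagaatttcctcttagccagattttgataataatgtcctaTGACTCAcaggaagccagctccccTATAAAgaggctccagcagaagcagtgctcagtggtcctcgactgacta
Selp: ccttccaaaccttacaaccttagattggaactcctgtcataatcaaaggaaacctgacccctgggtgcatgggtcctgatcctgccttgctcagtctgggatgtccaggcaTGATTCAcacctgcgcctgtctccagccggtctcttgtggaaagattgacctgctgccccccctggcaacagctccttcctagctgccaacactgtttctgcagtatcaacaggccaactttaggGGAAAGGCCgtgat
Icam1: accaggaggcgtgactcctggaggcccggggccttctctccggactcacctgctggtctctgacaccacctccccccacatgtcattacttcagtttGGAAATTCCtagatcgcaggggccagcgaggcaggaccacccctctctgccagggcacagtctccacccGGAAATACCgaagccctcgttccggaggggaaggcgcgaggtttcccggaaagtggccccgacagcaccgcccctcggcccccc
Ackr1: agccctgggcacTTATCTtggagccacagc

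Within 300 bases around the start site (250 before, 50 after), GGNNNTTCC matched in 4 of the 5 genes with an entry, and in 18.5% of 32851 RefSeq promoters. Sele held it 145 bases before its start. Selp held it on the opposite strand 14 bases before, Ackr1 on the opposite strand 131 bases before, and Icam1 held 2 matches, 153 and 84 bases before. The match in Ackr1 lies in annotated exon, as do all 250 bases before its RefSeq start, because the gene model used for counting begins further upstream. TGANTCA matched in Sele and Selp (73 and 139 bases before the start) and in 7.81% of all promoters. AGATAA matched in Ackr1 alone of the 5, after its start, and in 11.2% of all promoters. TATAAA matched in Sele, Slco2a1 and Icam1 (after the RefSeq start in Icam1) and in 13.6% of all promoters. The Icam1 distances are to the RefSeq start, which follows base 21015939, whereas the gene model used for counting starts at base 21015985. Its TATAAA match lies between those bases, before the counted start. All of these are matches of letters, and binding was not measured.

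Of the 9 genes, 7 had a lower and 2 a higher fitted level in BLM+HBO than in BLM mice, where 48.8% of all tested genes were lower and 51.2% higher. Their median log2 fold change was -0.34, against 0.01 over all tested genes. Ackr1 and Selp passed P less than 0.05 with a fold change above 1.5, the limits used in the study, and both were lower: 2 of 9, where 2.89% of all tested genes were called lower and 3.4% higher. Vwf also fell at P less than 0.05 (5.54% of all genes were lower and 5.11% higher at that limit) but by less than 1.5-fold. In 4 genes, Ackr1, Selp, Vwf and Icam1, every BLM+HBO mouse lay below every BLM mouse, against 4.72% of all tested genes, and in 0 of the 9 did every BLM+HBO mouse lie above (4.05%). Icam1 overlapped when counts were scaled by library total only, which left 3 genes. Without BLM 3 the count was 5, with Slco2a1 as lower, and without BLM+HBO 2 it was 6, with Plvap and Icam2 as higher. Smaller groups separate more easily, and the share of all genes without overlap was not counted for these sets.

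These calls rest on unadjusted P. After Benjamini-Hochberg adjustment over all 17465 genes edgeR called 0 genes (lowest adjusted P 0.423, 1861 genes or 10.7% at unadjusted P less than 0.05), and limma also called 0. DESeq2 called 1 of the 9, Ackr1 (0.501% of 17562 genes called lower).

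**Figure D1:**
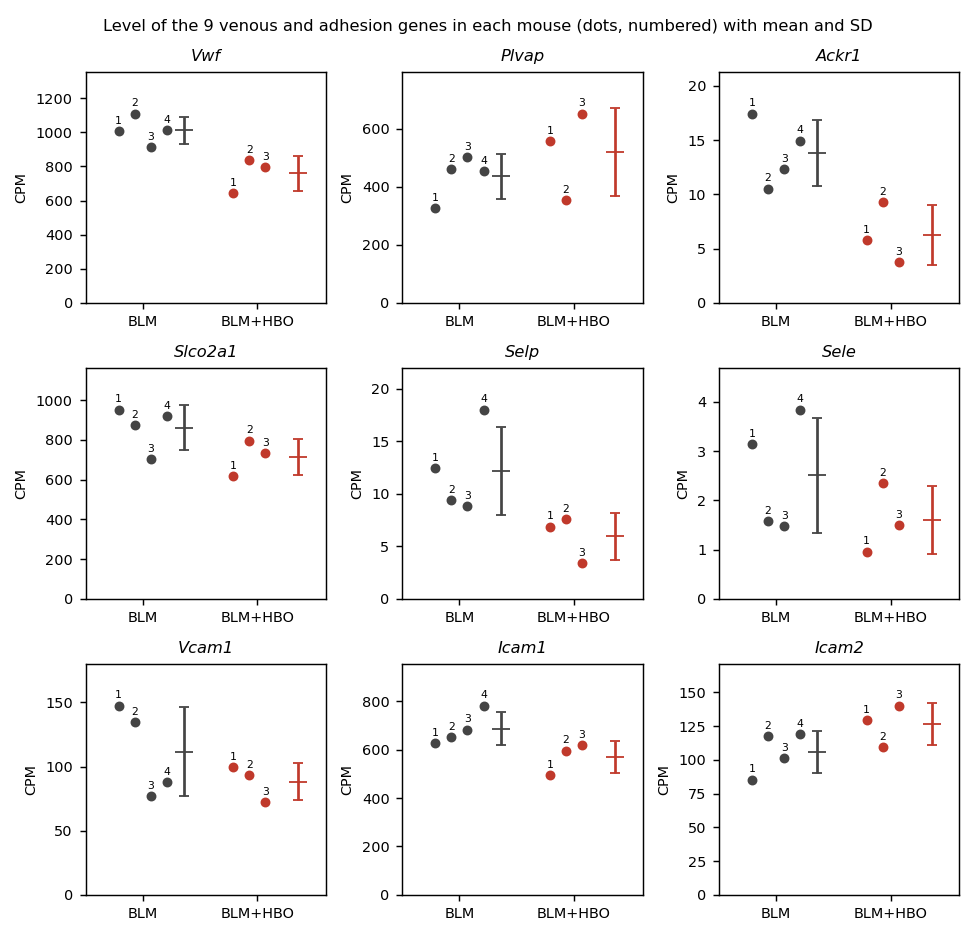
Level in CPM (y axis, from 0) of each of the 9 genes in each mouse (dots, numbered by replicate) of the BLM and BLM+HBO groups (x axis), with bars for the mean and SD. Ackr1, Selp, Vwf and Icam1 show no overlap between groups, and in Selp and Sele the mice BLM 1 and BLM 4 sit above BLM 2 and BLM 3.

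Ackr1 (ENSMUSG00000037872.5, chr1:173331886-173333750, minus strand) stood at 17.5, 10.5, 12.3 and 14.95 CPM in BLM 1 to 4. It stood at 5.75, 9.29 and 3.79 CPM in BLM+HBO 1 to 3. The highest BLM+HBO mouse was therefore under the lowest BLM mouse. Its mean was 13.8 ± 3.03 CPM (SD, n = 4) without and 6.27 ± 2.79 CPM (SD, n = 3) with HBO, and the fitted level fell to 45.3% of that in BLM. The log2 fold change was -1.14 (SE 0.31, 95% interval -1.83 to -0.46), with an edgeR P of 0.00422, adjusted 0.423, and a DESeq2 adjusted P of 0.0276. Without BLM+HBO 2, whose Ackr1 was the highest of its group, the log2 fold change was -1.54 and the edgeR adjusted P 0.0412, and without BLM+HBO 3 it was -0.88. Ackr1 was measured from 101 to 317 reads a mouse. Its exons share 361 bases with Cadm3 on the same strand, a gene with 17 to 58 reads a mouse.

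Among the other identity genes, Vwf (ENSMUSG00000001930.17, chr6:125546774-125686679, plus strand) was at 1006, 1110, 915 and 1013 CPM in BLM mice and at 643, 839 and 798 CPM in BLM+HBO mice. The ranges did not meet, with BLM+HBO 1 the lowest. Vwf had a log2 fold change of -0.41 (SE 0.14, 95% interval -0.73 to -0.10), and edgeR gave P of 0.0153, adjusted 0.423. The Vwf call depended on BLM+HBO 1, without which P was 0.0560 and the log2 fold change -0.30.

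Slco2a1 (ENSMUSG00000032548.14, chr9:102988712-103096002, plus strand) lay at 952, 874, 702 and 919 CPM in BLM mice against 617, 795 and 732 CPM in BLM+HBO mice. BLM 3 fell inside the BLM+HBO range, and the log2 fold change of -0.27 (95% interval -0.61 to 0.07) did not pass (edgeR P of 0.106). Plvap (ENSMUSG00000034845.6, chr8:71497765-71511752, minus strand) lay at 326, 461, 501 and 454 CPM in BLM and 556, 355 and 652 CPM in BLM+HBO mice. Here BLM+HBO 1 and 3 were above all BLM mice and BLM+HBO 2 was near the lowest. The log2 fold change was 0.26 (95% interval -0.23 to 0.74, edgeR P of 0.260), and it depended on single mice, being 0.47 (P of 0.0270) when BLM+HBO 2 was left out, 0.14 (P of 0.518) when BLM 1 was and 0.06 (P of 0.803) when BLM+HBO 3 was. The 4 identity genes thus held 2 that fell (Ackr1, Vwf) and 2 that did not pass.

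The adhesion genes began with Selp (ENSMUSG00000026580.16, chr1:164115264-164150026, plus strand), at 12.4, 9.36, 8.84 and 18.0 CPM in BLM mice and 6.87, 7.61 and 3.41 CPM in BLM+HBO mice. No BLM+HBO mouse reached a BLM mouse, and BLM 4 was well above the rest of its group. Selp averaged 12.2 ± 4.21 CPM (SD, n = 4) against 5.96 ± 2.24 CPM (SD, n = 3), a fitted level of 48.8% of BLM. For Selp the log2 fold change was -1.03 (SE 0.34, 95% interval -1.79 to -0.28), with an edgeR P of 0.0125, adjusted 0.423, and a DESeq2 adjusted P of 0.100. Leaving out BLM+HBO 2 gave -1.25. Leaving out BLM 4 gave -0.78 (edgeR P of 0.0383) and leaving out BLM+HBO 3 gave -0.75 (edgeR P of 0.0404), still past both limits. Selp was measured from 91 to 342 reads a mouse. Its exons, like those of Icam1, overlap antisense genes, which held at most 7 reads a mouse. Strand was not used in counting.

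Sele (ENSMUSG00000026582.6, chr1:164048234-164057677, plus strand) ends 57586 bases before Selp starts. It was the least abundant of the 9, with 57, 28, 27 and 73 reads in BLM and 18, 49 and 40 reads in BLM+HBO mice, that is 1.48 to 3.84 CPM against 0.958 to 2.35 CPM. As in Selp, BLM 4 and BLM 1 were the highest, but BLM 2 and BLM 3 lay within the BLM+HBO range. The log2 fold change was -0.65 (SE 0.45, 95% interval -1.65 to 0.36, edgeR P of 0.183). Dropping BLM 4 brought it to -0.36, dropping BLM+HBO 1 to -0.39 and dropping BLM+HBO 2 to -1.02, and none of these 3 values passed P less than 0.05. The mice differed by more than counting error: the exact 95% Poisson interval was 57.2 to 91.8 reads in BLM 4 and 17.8 to 39.3 reads in BLM 3. The interval of the fold change holds the value of Selp as well as 0, and whether the selectins differ was not tested.

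Of the integrin ligands, Icam1 (ENSMUSG00000037405.8, chr9:21015985-21028817, plus strand) lay at 627, 652, 683 and 783 CPM in BLM and 496, 597 and 621 CPM in BLM+HBO mice. The groups did not overlap, by a margin of a few CPM between BLM 1 and BLM+HBO 3. The log2 fold change of -0.27 (SE 0.13, 95% interval -0.57 to 0.04) did not pass (edgeR P of 0.0788). Vcam1 (ENSMUSG00000027962.14, chr3:116109949-116129688, minus strand) was at 148, 135, 76.7 and 87.9 CPM in BLM and 99.3, 93.4 and 72.3 CPM in BLM+HBO mice. The BLM mice split into a pair above and a pair within the BLM+HBO range, and the log2 fold change was -0.34 (95% interval -0.86 to 0.18, edgeR P of 0.172). Without BLM 3, both Vcam1 and Slco2a1 passed P less than 0.05, as lower.

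Icam2 (ENSMUSG00000001029.15, chr11:106377656-106388075, minus strand), which resting endothelium carries constantly and which inflammatory signals do not raise as they raise Icam1, lay at 85.3, 117, 101 and 119 CPM in BLM and 129, 110 and 140 CPM in BLM+HBO mice. Its log2 fold change was 0.26 (SE 0.14, 95% interval -0.06 to 0.58, edgeR P of 0.0990), and the groups overlapped at BLM+HBO 2. When that mouse was left out, Icam2 stood at 0.35 with an edgeR P of 0.0475. The ratio of Icam1 to Icam2 CPM within each mouse was 7.36, 5.56, 6.75 and 6.59 in BLM and 3.83, 5.44 and 4.43 in BLM+HBO mice. All 3 BLM+HBO ratios were below all 4 BLM ratios, with BLM 2 and BLM+HBO 2 close together. The ratio was formed after the levels were seen and was given no test.

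**Figure D2:**
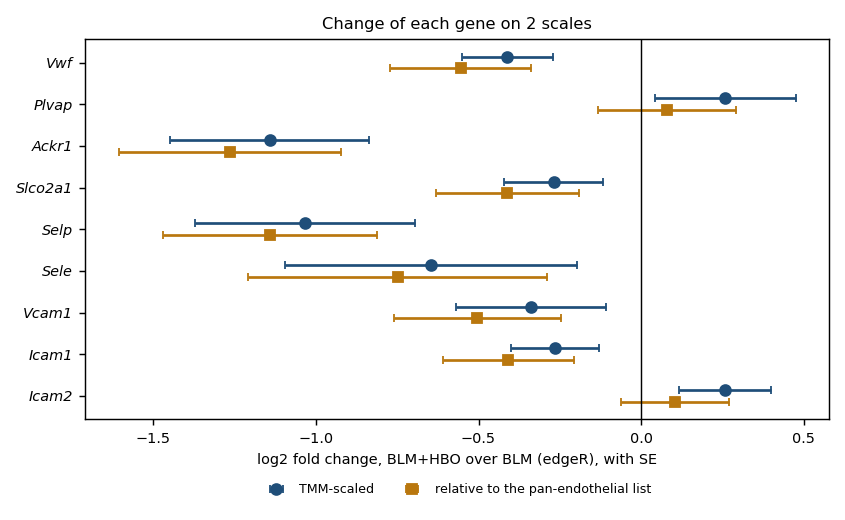
Log2 fold change of BLM+HBO over BLM (x axis) for each gene (y axis), with bars for the SE from edgeR, as TMM-scaled counts (circles) and relative to the pan-endothelial list (squares). Ackr1 and Selp lie between -1.26 and -1.03 on both scales, and Plvap and Icam2 move toward 0 on the second.

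To set the 9 genes against the endothelium as a whole, their counts were also scaled to 15 pan-endothelial genes. The summed level of these 15 was 4005, 4646, 4137 and 5041 CPM in BLM and 5365, 4332 and 5381 CPM in BLM+HBO mice. The difference of 568 CPM between means (12.8% of the BLM mean, and 20.4% without BLM+HBO 2) had a P of 0.2 in a two-sided exact permutation test (smallest possible P 0.0286), and 0 of the 15 genes passed P less than 0.05 by edgeR, with 13 of 15 means higher in BLM+HBO. This scaling moved the median of all genes by more than 0.1, to -0.15, and that of the 9 genes to -0.50. Calls of all genes at P less than 0.05 shifted to 1243 lower (7.12%) and 389 higher (2.23%), against 968 lower and 893 higher under TMM scaling.

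Relative to the pan-endothelial genes, Ackr1 had a log2 fold change of -1.26 (SE 0.34, edgeR P of 0.00190) and Selp of -1.14 (SE 0.33, edgeR P of 0.00322). Vwf was at -0.55 (SE 0.22, edgeR P of 0.0209). The ratio of Vwf CPM to the geometric mean of the 15 genes ran from 3.73 to 4.74 in BLM and from 2.28 to 3.64 in BLM+HBO mice. Those 3 genes again passed P less than 0.05, and Ackr1 and Selp again passed both limits, where 4.98% of all genes were called lower and 1.95% higher on this scale. After adjustment 0 of the 9 passed, and 2 of all genes did (0.0115%). Sele (-0.75), Vcam1 (-0.50), Slco2a1 (-0.41) and Icam1 (-0.41) did not pass. Plvap and Icam2 stood at 0.08 and 0.10, with SE of 0.21 and 0.17.

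Levels of different genes were compared per length, as TPM (transcript counts scaled for length and library). In BLM mice the order was Plvap (663 ± 98.3 TPM), Icam1 (479 ± 57.4), Slco2a1 (194 ± 32.2), Vwf (191 ± 17.5), Icam2 (168 ± 24.9), Vcam1 (38.4 ± 12.6), Ackr1 (30.1 ± 7.79), Selp (8.45 ± 3.22) and Sele (2.66 ± 1.33), each as mean ± SD with n = 4. The ranges over mice overlapped for the neighbours Plvap and Icam1, Slco2a1 and Vwf, Vwf and Icam2, and Vcam1 and Ackr1. Within single mice, however, Plvap was above Icam1 in all 7, and Vwf was above Icam2 in all 4 BLM mice, by little in BLM 4 (198 against 196 TPM). Slco2a1 and Vwf, and likewise Vcam1 and Ackr1, changed places between BLM mice. In BLM+HBO mice (n = 3), Icam2 stood before Slco2a1 and Vwf, at 201 ± 18.0, 160 ± 23.9 and 144 ± 22.2 TPM. Icam2 was above Vwf in all 3, while the range of Slco2a1 overlapped with both. The genes that passed both limits, Ackr1 and Selp, were thus in the lower part of the order, at 13.7 ± 6.54 and 4.12 ± 1.64 TPM in BLM+HBO mice.

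Other genes of venous and systemic-venous endothelium were counted in the same fit. Of 12 tested, 8 had a lower and 4 a higher fitted level, 0 passed both limits as lower and 1 as higher (2.89% and 3.4% of all genes), and the median log2 fold change was -0.07. The gene that rose was Ebf1, a transcription factor, at 9.58, 9.86, 8.02 and 11.7 CPM in BLM and 18.4, 14.98 and 11.8 CPM in BLM+HBO mice. Its log2 fold change was 0.62 (SE 0.20, edgeR P of 0.0111). Nr2f2, the transcription factor of venous fate, had a log2 fold change of -0.07 (edgeR P of 0.637), and Ephb4, the venous ephrin receptor, of -0.08.

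Weibel-Palade body genes, 11 tested with a median of 0.04, held 0 that rose and 1 that fell past both limits (3.4% and 2.89% of all genes). This was Plat, tissue plasminogen activator, at 146, 131, 104 and 111 CPM in BLM and 44.0, 94.5 and 92.2 CPM in BLM+HBO mice, without overlap (log2 fold change -0.67, SE 0.25, edgeR P of 0.0221). Cd63 and Igfbp7 also fell at P less than 0.05 but by less than 1.5-fold (both -0.48), and both are made by many cell types. Among 10 transmigration and junction genes 0 passed both limits, the median was 0.07, and Jam2 alone fell at P less than 0.05 (-0.37). Cd63, Igfbp7 and Jam2 were named after their values were seen.

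A list of cytokines, their receptors and NF-kB pathway genes, which holds inhibitors and targets of the pathway as well as inducers, leaned lower. Of 18 tested, 13 had a lower and 5 a higher fitted level (48.8% and 51.2% of all genes), and the median was -0.20. At P less than 0.05, 5 fell and 1 rose (5.54% and 5.11% of all genes). Past both limits, 3 fell and 0 rose (2.89% and 3.4% of all genes). Ccl2, a monocyte chemokine that Ackr1 binds, stood at 60.8, 45.9, 34.2 and 37.2 CPM in BLM and at 3.41, 23.2 and 5.51 CPM in BLM+HBO mice (log2 fold change -2.06, SE 0.56, edgeR P of 0.00460). Il4ra, the receptor chain for IL-4 and IL-13, was at 349, 349, 317 and 381 CPM against 158, 286 and 210 CPM (-0.68, SE 0.18, edgeR P of 0.00460). Neither overlapped between groups, and in both BLM+HBO 2 was nearest to the BLM mice.

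Cxcl1, a neutrophil chemokine, was at 13.6, 3.44, 3.40 and 11.8 CPM in BLM and 2.24, 3.92 and 1.54 CPM in BLM+HBO mice (log2 fold change -1.66, SE 0.57, edgeR P of 0.0168). It passed both limits although BLM 2 and BLM 3 lay within the BLM+HBO range, and BLM 1 and BLM 4 carried the difference, the mice in which Selp and Sele were also highest. Il6, named after its values were seen, had the same high mice, with 6.83 and 14.0 CPM in BLM 1 and BLM 4 against 2.09 and 2.36 CPM in BLM 2 and BLM 3 (log2 fold change -1.44, edgeR P of 0.0687). Il1b (-0.06), Tnf (-0.23), Nfkb1 (0.05) and Rela (-0.01) did not pass. Traf1, also named after its values were seen, rose by 0.57 on the log2 scale, under the fold limit.

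**Figure D3:**
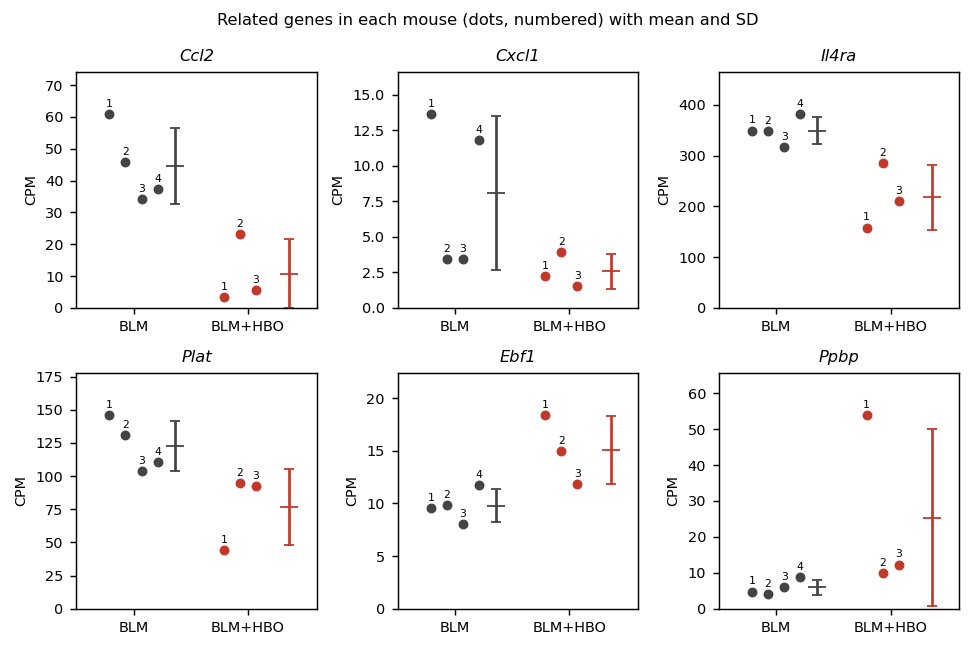
Level in CPM (y axis, from 0) of 6 related genes in each mouse (dots, numbered by replicate) of the BLM and BLM+HBO groups (x axis), with bars for the mean and SD. Ccl2, Il4ra and Plat are lower and Ebf1 and Ppbp higher in every BLM+HBO mouse, and Cxcl1 overlaps.

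The leukocyte counter-receptors of these adhesion genes, 12 tested, had a median of 0.36, with 1 called higher and 0 lower (3.4% and 2.89% of all genes). Itgb7, an integrin chain whose pair with Itga4 binds VCAM-1, was at 21.6, 23.9, 25.7 and 37.3 CPM in BLM and 62.3, 34.1 and 34.2 CPM in BLM+HBO mice (log2 fold change 0.68, edgeR P of 0.0229). The groups overlapped at BLM 4, and BLM+HBO 1 was far above the rest. Selplg, the selectin ligand on leukocytes, had a log2 fold change of -0.04 (edgeR P of 0.822).

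Other vessel types were compared by the same counts, beside 2.89% of all genes called lower and 3.4% called higher. Of 10 capillary genes, 2 rose past both limits and 0 fell (median 0.30): Apln (0.62) and Fibin (0.59), each with overlap between groups. Of 10 arterial genes 1 fell and 0 rose (median -0.13), the matrix protein gene Mgp (-0.71), which is not restricted to arteries and overlapped between groups. Hey1 (0.35, edgeR P of 0.00837) and Efnb2 (0.26, edgeR P of 0.0420) rose without overlap, by less than 1.5-fold. Unc5b was lower without overlap (-0.55, edgeR P of 0.0512). Hey1, Efnb2 and Unc5b were named after their values were seen. Of 8 lymphatic genes 7 were tested, 2 fell and 0 rose (median -0.47), namely Sema3d (-0.88) and Reln (-0.82). Both overlapped between groups, and both were highest in BLM 1, at 53.4 and 44.2 CPM.

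**Figure D4:**
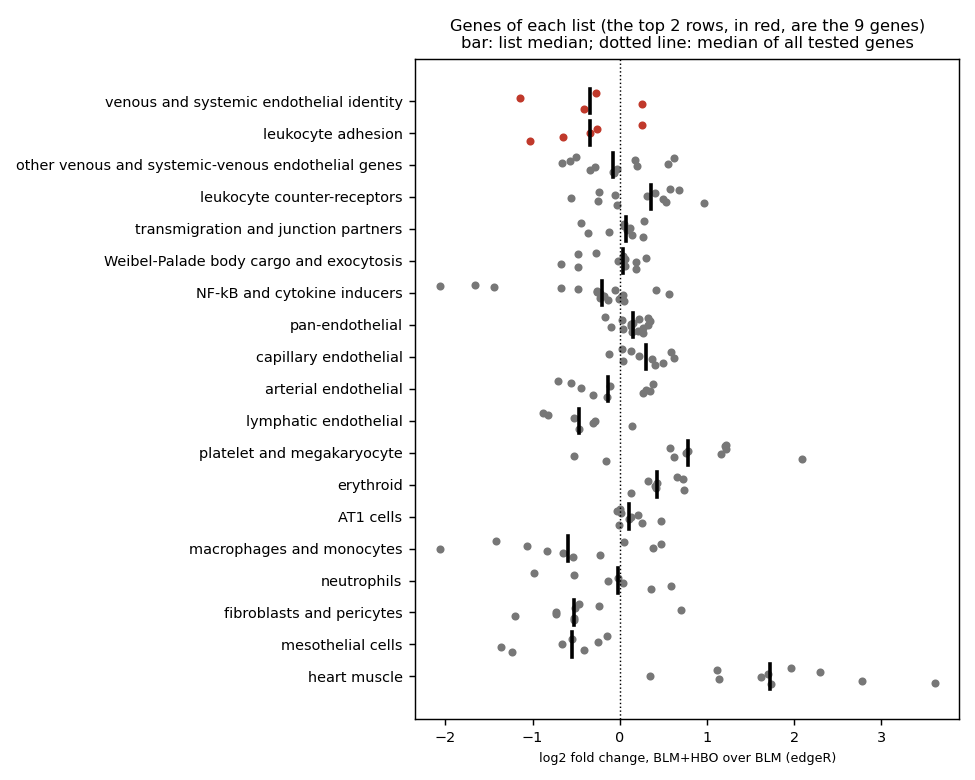
Log2 fold change of BLM+HBO over BLM (x axis) for every tested gene (dots) of each gene list (y axis), with a bar for the list median and a dotted line for the median of all tested genes. The 9 genes, in red in the top 2 rows, have medians of -0.34 in both rows, against 0.16 for the pan-endothelial list.

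Several of the 9 genes are also made outside venous endothelium, so markers of those cells were set beside them. Vwf and Selp are made by megakaryocytes as well. Of 12 platelet and megakaryocyte genes 11 were tested. Past both limits 4 rose and 0 fell (3.4% and 2.89% of all genes), with a list median of 0.78. Their sum was 131 to 172 CPM in BLM and 121 to 233 CPM in BLM+HBO mice. Ppbp, the most changed of them, was at 4.79, 4.17, 5.93 and 8.90 CPM in BLM and 53.8, 9.96 and 12.3 CPM in BLM+HBO mice, so BLM+HBO 1 stood apart. Selp and Vwf did not overlap between groups, so their lower level in that mouse is no separate observation. Of 8 erythroid genes 0 passed P less than 0.05 (median 0.42), and their sum ran from 1413 to 3542 CPM in BLM and 1852 to 3238 CPM in BLM+HBO mice, with overlap.

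Icam1 and Vcam1 are also made by epithelial, stromal and myeloid cells. Of 9 alveolar type 1 genes 0 passed P less than 0.05 (sum 5872 to 8145 CPM against 7466 to 8206 CPM). Of 10 macrophage and monocyte genes 5 fell and 0 rose past both limits (2.89% and 3.4% of all genes). Their median was -0.59 and their sum 4975 to 7080 CPM against 1742 to 4320 CPM. The smallest P values among them belonged to Marco (-2.06), Mrc1 (-0.84), Spp1 (-1.42) and Adgre1 (-0.65). Of 8 neutrophil genes 7 were tested and 1 fell, Il1r2 (-0.98), with a sum of 169 to 229 CPM against 105 to 489 CPM.

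Of 9 fibroblast and pericyte genes 3 fell and 1 rose past both limits (2.89% and 3.4% of all genes). Their median was -0.52 and their sum 4733 to 7182 CPM against 1699 to 4849 CPM. Of 7 mesothelial genes 2 fell, Msln (-1.23) and Wt1 (-1.36), and 0 rose (sum 654 to 1123 CPM against 394 to 752 CPM). Heart muscle genes rose in 9 of 10 (median 1.72, sum 71.8 to 194 CPM against 171 to 730 CPM). Of all genes in these lists, Gp1bb, a platelet receptor chain, had 0 reads in every mouse. The part of these cell types in the levels of the 9 genes was not tested.

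Likeness of pattern was measured as Pearson r of log2 CPM over the 7 mice, which share the group difference, and it is given as a description. Among the 9 genes, Ackr1 and Selp had r of 0.917 and Plvap and Icam2 of 0.823. Over all genes with a mean of at least 1 CPM, Ackr1 was most like Pgm2 (0.993), 1200007C13Rik (0.987) and Gk (0.978), and Selp most like Gm9118 (0.970), Junb (0.965) and Dusp5 (0.953). The nearest genes were Nek6 (0.989), Marco (0.989) and Pip5k1c (0.985) for Vwf, and Gli3, Adap2 and Shc1 (0.977 to 0.988) for Slco2a1. For Icam2 they were Thbd (0.992), the endothelial thrombin receptor thrombomodulin, Echdc2 and Phactr1, and for Plvap Acot1, Tmem116 and Gpd1 (0.978 to 0.984). Vcam1 was nearest to Dnajc3 (0.997), Zdhhc13 and Cyld, Icam1 to Gm14276 (0.970), Yars and Ccr10, and Sele to E2f8 (0.987), Spry4 and Acvr1b.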

How the data were processed

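The deposited table held raw read counts per gene for 7 lungs. The authors trimmed reads with Trim Galore, aligned them with HISAT2 (2.2.0 in the submitters' processing notes) to GRCm38 and assigned them to genes with featureCounts, whose default settings ignore strand and drop reads shared by overlapping genes. Gene symbols were matched by identifier for 55141 of 55401 genes. Genes passing filterByExpr (minimum count 10) were tested with edgeR 4.0.16 in R 4.3.3, by the quasi-likelihood test on TMM-scaled counts with group as the only term. DESeq2 1.42.0, limma 3.58.1, other scalings and filters, a replicate block and leaving out each mouse were alternatives. Calls needed P under 0.05, unadjusted, together with more than a 1.5-fold change. Scripts were tested on simulated data. TPM used the exonic lengths in the table. The edgeR P-values weigh each group difference against the spread of mice within groups, estimated partly across genes, and concern these 7 mice only. The members and gene lists were chosen with earlier results of these data known. In each list up to 4 called genes with the smallest P were named (without any, up to 2 with the highest mean), and for each of the 9 genes the 3 with the highest r. Others were named after their values were seen.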

Additional observations from a re-analysis of the deposited data

Results flagged for a closer look

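The total count of BLM 4 (19002242) lay far from those of the other BLM mice (18436336 to 18452895), at 0.970 of the group's range on the log2 scale, above Dixon's 95% limit for 4 samples. It was 1 of 11 sets of values examined in the BLM group, the others being the levels of the 9 genes and the pan-endothelial sum. Chance passes that limit about 1 time in 20 for each set, and so more often for at least 1 of the 11. The totals differ by only a few percent. Without BLM 4, Selp had a log2 fold change of -0.78 and Ackr1 of -1.10, and both passed the limits.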

How the results depend on the processing

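Ackr1 and Selp passed both limits, as lower, under all 16 alternatives, and none of the 9 genes changed direction under any of them. The log2 fold change ranged from -1.54 to -0.88 for Ackr1, from -1.25 to -0.75 for Selp and from -0.55 to -0.30 for Vwf, with edgeR, limma or DESeq2 adjusted P of 0.0163 to 0.802, 0.0507 to 0.802 and 0.150 to 0.802. The number of the 9 genes at adjusted P less than 0.05 was 1 (Ackr1) by DESeq2, 1 (Ackr1) with no filter on low counts, and 0 to 1 when leaving out a mouse, being 1 without BLM+HBO 2. At unadjusted P less than 0.05 it was 2 to 5 when leaving out a mouse, being 2 without BLM+HBO 1 (Vwf lost), 5 without BLM 3 (Slco2a1 and Vcam1 added) and 5 without BLM+HBO 2 (Plvap and Icam2 added). The share of all genes at that limit was not counted in these fits. The number of the 9 without overlap between groups was 4, 3 by library total only, and 4 to 6 when leaving out a mouse. For these alternatives the share of all genes without overlap was not counted. The median of the 9 was -0.50 relative to the pan-endothelial list. The number of genes of any kind past both limits (504 lower and 594 higher) became 1940 with no filter (387 at adjusted P less than 0.05), 1914 without BLM+HBO 2 (267 adjusted), 659 without BLM+HBO 1 and 706 without BLM 1. The cause of these differences was not tested.

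Same-numbered mice did not deviate together (correlations -0.01, -0.07 and 0.16), so the numbers were not taken as pairs. With the replicate block, Ackr1 (-1.16), Selp (-0.84) and Vcam1 were at P less than 0.05 and Vwf was not (P of 0.0521), 2 of the 9 passed both limits, 0 passed adjustment, and 1258 genes were called in all. Sele had the fewest reads: its lowest library held 18, with an exact 95% Poisson interval of 10.7 to 28.4 that covers counting error only.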
